A study of Mus musculus with 36 samples.

Results

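The nuclear RNA exosome is a ring of subunits closed by a cap, with the nucleases DIS3 and EXOSC10 attached, that degrades RNA from its 3′ end. Adaptor complexes bring it substrates through the helicase MTR4. The nuclear exosome targeting complex, NEXT, joins MTR4 to ZCCHC8 and RBM7 and acts on short-lived transcripts without a poly(A) tail, such as promoter upstream RNA and enhancer RNA. The poly(A) tail exosome targeting connection, PAXT, joins MTR4 to ZFC3H1 and acts with the nuclear poly(A) binding protein on polyadenylated nuclear RNA. NEXT and PAXT share the helicase and the exosome, which is why the levels of PAXT and exosome genes are of interest in cells that have lost ZCCHC8.

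The genes described here are 8 subunits of this machinery, taken by their symbols from tables that list 18419 genes in common, and all 8 were present in each of the 6 tables. They are Zcchc8 and Rbm7 of NEXT, Zfc3h1 of PAXT, the cap subunits Exosc2 and Exosc3, the ring subunit Exosc9, and the nuclease genes Dis3 and Exosc10. The question put to the data was whether the other 7 were higher, as in compensation, once ZCCHC8 was depleted, and how that compared with the loss of METTL3 or YTHDC1. All 8 passed the filter on low counts in every comparison of read counts and the filter of 100 reads per library in every comparison of label.

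The measurements are SLAM-seq of mouse embryonic stem cells (mES cells), in which 4-thiouridine (4sU) incorporated into new RNA is read as a T-to-C mismatch. The cells are Castaneus by 129S hybrids with a doxycycline-inducible Xist gene on the 129S X chromosome, which also carries Bgl stem loops in Xist. In each of 3 lines 1 endogenous protein carries an FKBP12 F36V degron tag: METTL3 (clone 12D), the catalytic subunit of the m6A RNA methyltransferase, YTHDC1 (clone Y12H), a nuclear reader of m6A, and ZCCHC8 (clone Z12H). Cells of the dTAG arm received dTAG-13, which sends the tagged protein to degradation, from 2 h before doxycycline, and cells of the Ctrl arm did not. All groups of both arms received doxycycline at 1 µg/ml, which was kept through the later steps. After 20 h of it came 500 µM 4sU for 4 h, and a chase in 50 mM uridine of 0, 90 or 180 min. Each of the 18 groups had 2 replicates, so a line had 6 Ctrl and 6 dTAG libraries. Each line is a single clone, so a difference between lines cannot be told apart from a difference between clones or cultures. The cultures were grown on feeder cells, which were depleted by preplating.

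The 36 libraries held 5274684 to 18652000 reads on genes, with the shallowest in the ZCCHC8 line (5274684 to 10257631). Zcchc8 itself was read 164 to 1618 times per library and Exosc3 163 to 1204 times, the fewest of the 8, while Dis3 was read 1181 to 5179 times. Levels are given as CPM, read counts brought to 1 common library size with factors from trimmed means over all 36 libraries. The 8 mES cell markers, among them Pou5f1 and Nanog, summed to 2258 to 3690 CPM. The 7 feeder fibroblast markers summed to 5.83 to 27.8 CPM, with Lum, Col3a1 and Postn at 0 in some libraries. The others were read in each library, Thy1 at 2.85 to 16.5, Col1a1 at 1.11 to 7.76, Col1a2 at 0.951 to 4.64 and Dcn at 0.0634 to 1.32 CPM. The 5 markers of differentiated cells summed to 3.28 to 10.2 CPM. In the ZCCHC8 line the last of these sums was 5.69 to 8.68 CPM in the Ctrl arm and 7.18 to 10.2 CPM in the dTAG arm. It was 3.28 to 6.16 and 3.82 to 9.64 CPM in the METTL3 line, and 3.54 to 5.94 and 3.85 to 6.99 CPM in the YTHDC1 line, and its part in the results below was not tested. In such bulk samples a lower level in each cell and fewer cells with the RNA cannot be told apart.

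Zcchc8 (ENSMUSG00000029427) lies on the minus strand of chromosome 5 in build mm10, at chr5:123698294-123721100. According to the study's methods the tag was added at the C terminus of ZCCHC8. The end of the coding sequence, in exon 14 of 14, is shown because it is where the reading frame of the tag joins the gene, at chr5:123700344-123700403 on the minus strand. The letters are those of the GENCODE M21 transcript ENSMUST00000196282, with the stop codon in capitals.
Zcchc8: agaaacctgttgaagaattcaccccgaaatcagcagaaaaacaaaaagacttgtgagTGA

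The untagged reference protein has 709 residues. The degron acts on the protein, so the Zcchc8 read count is no check of the depletion.

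Zcchc8 was read less in the ZCCHC8 line than in the other lines before any depletion. Its level in the 6 Ctrl libraries of the ZCCHC8 line was 27.9, 33.5 and 41.9 CPM (lowest, median and highest). In the Ctrl libraries of the METTL3 line it was 58.0, 64.6 and 100.9 CPM, and in those of the YTHDC1 line 56.4, 70.2 and 107.5 CPM. The highest library of the ZCCHC8 line stood below the lowest of either other line, which held for 2.5% and 2.25% of 9510 genes with a mean of 10 CPM or more against the METTL3 and the YTHDC1 line. The mean was 47.8% of that in the METTL3 line and 46.6% of that in the YTHDC1 line. The log2 difference was −1.02 against the METTL3 line (SE 0.105, adjusted p = 3.02e-05 in edgeR's quasi-likelihood test) and −1.06 against the YTHDC1 line (SE 0.105, adjusted p = 6.33e-05). The METTL3 and YTHDC1 lines differed by −0.04 (95% interval −0.25 to 0.18). These 3 comparisons called 30.7%, 13.6% and 2.43% of the 14265 genes tested, 17.7% and 8.6% as lower in the ZCCHC8 line in the first 2, and 126 and 30 of 14251 genes were as low as Zcchc8 against the METTL3 and the YTHDC1 line.

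At 0 min of chase the Zcchc8 difference was mostly in labelled RNA. GRAND-SLAM, the program used by the authors, gives for each gene and library a new-to-total ratio, the share of its RNA made during the pulse. At 0 min of chase this ratio was 0.637 and 0.709 in the 2 Ctrl replicates of the ZCCHC8 line. The METTL3 line had 0.759 and 0.858 and the YTHDC1 line 0.813 and 0.850. Over 7011 genes the median ratio of the Ctrl replicates was 0.494 and 0.537 for ZCCHC8, 0.567 and 0.571 for METTL3, and 0.535 and 0.565 for YTHDC1 cells. CPM multiplied by the ratio gave a level of new Zcchc8 RNA at 0 min in the ZCCHC8 line that was 42.2% of the METTL3 and 41.4% of the YTHDC1 level. The remaining, older RNA stood at 88.1% and 99.9%. For the median gene new RNA was at 88.5% and 89.2%, and older RNA at 101.4% and 95.1%. At 180 min the unlabelled part also holds RNA made during the chase, so it is not the older RNA of 0 min. Unlabelled Zcchc8 RNA was then at 15.94 and 23.43 CPM in the Ctrl replicates of the ZCCHC8 line. It was at 48.85 and 52.74 CPM in the METTL3 line and 43.93 and 66.77 CPM in the YTHDC1 line. Labelled Zcchc8 RNA at 180 min was at 22.84 and 18.44 CPM, against 32.73 and 48.19 CPM and 35.0 and 40.75 CPM. The ratio was estimated separately for each line and replicate, and these comparisons of 2 replicates a line were not tested.

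Of the 17 genes tested within 500 kb of Zcchc8, 1 stood as low. Clip1 (ENSMUSG00000049550, chr5:123577795-123684618), which codes for a microtubule plus-end protein and lies next to the 3′ end of Zcchc8, was named after its values were seen. Its level was 6.41, 8.85 and 9.96 CPM (lowest, median and highest) in the Ctrl libraries of the ZCCHC8 line, below the 20.7 to 31.6 CPM of the METTL3 line and the 20.5 to 25.5 CPM of the YTHDC1 line. Its log2 difference was −1.58 (SE 0.142, adjusted p = 8.4e-06 in edgeR) against the METTL3 line and −1.41 (SE 0.142, adjusted p = 6.33e-05) against the YTHDC1 line. Called lower were 4 of the 17 against the METTL3 line and 2 against the YTHDC1 line, Clip1 included, beside 17.7% and 8.6% of all genes. Called higher were Mlxip and Hip1r against the METTL3 line, and Mlxip against the YTHDC1 line. The 17 neighbours had a median difference of 0.13 and 0.01, and the 887 tested genes of chromosome 5 a median of 0.0056 and −0.0030.

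**Figure D1:**
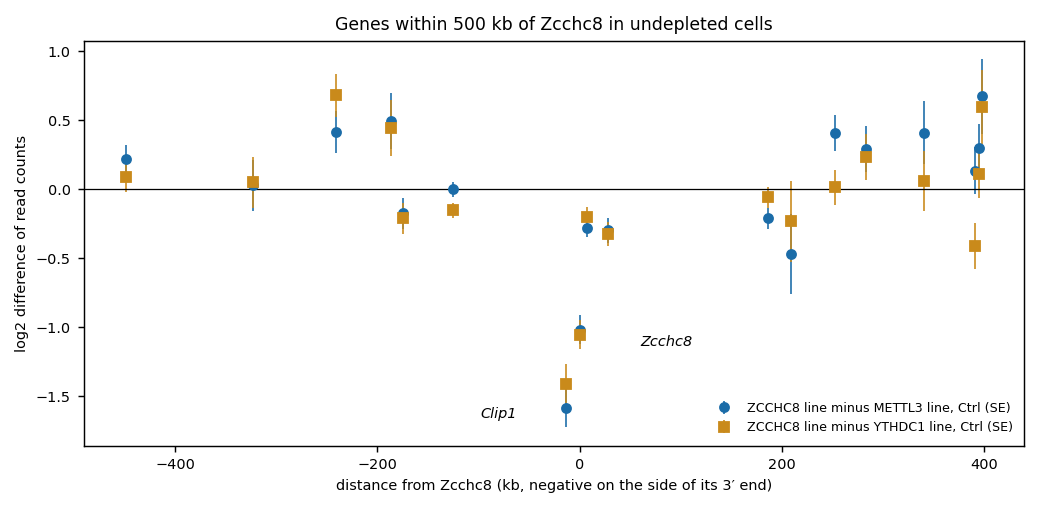
Log2 difference of read counts in undepleted (Ctrl) libraries between the ZCCHC8 line and the METTL3 line (circles) or the YTHDC1 line (squares) for Zcchc8, at distance 0, and the 17 tested genes within 500 kb, with bars of 1 SE. Zcchc8 stood at −1.02 and −1.06 and Clip1 at −1.58 and −1.41, below the other genes, which lay between −0.47 and 0.68.

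When ZCCHC8 was depleted, Zcchc8 RNA itself was not called. Its level was 27.9, 33.5 and 41.9 CPM in the Ctrl arm and 31.8, 33.7 and 42.8 CPM in the dTAG arm. The 2 arms overlapped, and the log2 fold change was 0.07 (SE 0.0678, 95% interval −0.07 to 0.21, adjusted p = 0.436 in edgeR). Rbm7, the RNA-binding partner of ZCCHC8 within NEXT (ENSMUSG00000042396, chr9:48488701-48495299, minus strand), was also not called. Its level was 66.7, 70.7 and 90.6 CPM in the Ctrl arm and 58.8, 72.0 and 88.1 CPM in the dTAG arm. The fold change was −0.01 on the log2 scale with a 95% interval of −0.11 to 0.09 (adjusted p = 0.853 in edgeR).

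Zfc3h1, which codes for the zinc finger protein that links MTR4 to polyadenylated RNA in PAXT (ENSMUSG00000034163, chr10:115384959-115432772, plus strand), rose 1.17-fold. Its level was 44.6, 71.2 and 107.3 CPM in the Ctrl arm and 62.0, 80.3 and 106.0 CPM in the dTAG arm. The ranges overlapped, and at equal time and replicate number the dTAG library was the higher in 5 of 6 pairs. The log2 fold changes of these pairs were 0.25 and 0.52 at 0 min, 0.25 and 0.10 at 90 min, and 0.14 and −0.02 at 180 min. The fitted value was 0.23 (SE 0.0643, 95% interval 0.10 to 0.36, adjusted p = 0.00646 in edgeR). At 0 min new Zfc3h1 RNA differed by 0.10 and 0.15 on the log2 scale, and older Zfc3h1 RNA by 0.58 and 1.46. Over 7011 genes the medians were −0.06 and −0.20 for new and −0.06 and 0.05 for older RNA. At 180 min labelled Zfc3h1 RNA differed by −0.07 and 0.21 and unlabelled by 0.32 and −0.17. These splits were not tested.

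Exosc10, the gene of the nuclease found in the nucleus and nucleolus (ENSMUSG00000017264, chr4:148558429-148582401, plus strand), rose 1.10-fold. Its level was 123.3, 149.4 and 172.3 CPM in the Ctrl arm and 144.0, 156.0 and 173.9 CPM in the dTAG arm. It was higher in 5 of 6 pairs, with log2 differences of 0.01 and 0.03 at 0 min, −0.01 and 0.13 at 90 min, and 0.22 and 0.17 at 180 min. The fitted value was 0.13 (SE 0.0435, 95% interval 0.04 to 0.22, adjusted p = 0.016 in edgeR). The other nuclease gene, Dis3 (ENSMUSG00000033166, chr14:99075206-99099770, minus strand), was at 166.3, 221.6 and 287.1 CPM in the Ctrl arm and 181.7, 224.2 and 250.4 CPM in the dTAG arm. Its fitted value of 0.07 on the log2 scale (95% interval −0.04 to 0.19, adjusted p = 0.327 in edgeR) did not pass the threshold.

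The core subunits did not move together. Exosc3, a cap subunit that contacts RNA (ENSMUSG00000028322, chr4:45316613-45342732, minus strand), fell. Its level was 29.9, 34.3 and 47.3 CPM in the Ctrl arm and 26.0, 29.7 and 35.4 CPM in the dTAG arm, lower in 6 of 6 pairs, with a log2 fold change of −0.22 (SE 0.0722, 95% interval −0.36 to −0.07, adjusted p = 0.0194 in edgeR). Exosc9, of the ring (ENSMUSG00000027714, chr3:36552606-36565727, plus strand), also fell. It was at 69.1, 81.0 and 95.4 CPM in the Ctrl arm and 61.7, 75.1 and 81.0 CPM in the dTAG arm, lower in 5 of 6 pairs, with a log2 fold change of −0.13 (SE 0.0497, 95% interval −0.23 to −0.02, adjusted p = 0.0471 in edgeR). The cap subunit Exosc2 (ENSMUSG00000039356, chr2:31670715-31681349, plus strand) was at 80.9, 93.9 and 106.1 CPM and at 81.1, 96.3 and 113.3 CPM, a difference of 0.07 (95% interval −0.03 to 0.16, adjusted p = 0.264 in edgeR) that did not pass.

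In all, 4 of the 8 genes were called in the ZCCHC8 line, 2 higher and 2 lower. Over all 13962 genes tested 39.6% were called, 20.1% higher and 19.5% lower, and the 8 genes had a median log2 fold change of 0.069 against −0.0035 over all genes. The share called among the 8 was near that of all genes. The largest upper bound of the 95% intervals was 0.36 on the log2 scale, for Zfc3h1, and that of Rbm7 was 0.09. The ranges of the 2 arms overlapped for each of the 8 genes, where 7.13% of the 9510 genes had arms that did not overlap in this line. The 3 chase libraries of a replicate entered this fit as separate libraries, and with their counts summed, 2 against 2, none of the 8 was called in edgeR (3 had an unadjusted p under 0.05, and Zfc3h1 an adjusted p of 0.0667), beside 24.8% of 15455 genes. Without replicate 2, Zfc3h1 alone was called, beside 24.5% of all genes. Without replicate 1 Exosc9 was at −0.04 (adjusted p = 0.579 in edgeR) and Dis3 at 0.13 (adjusted p = 0.0119). With no filter on low counts Exosc10 did not pass (0.11, adjusted p = 0.0723 in edgeR).

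**Figure D2:**
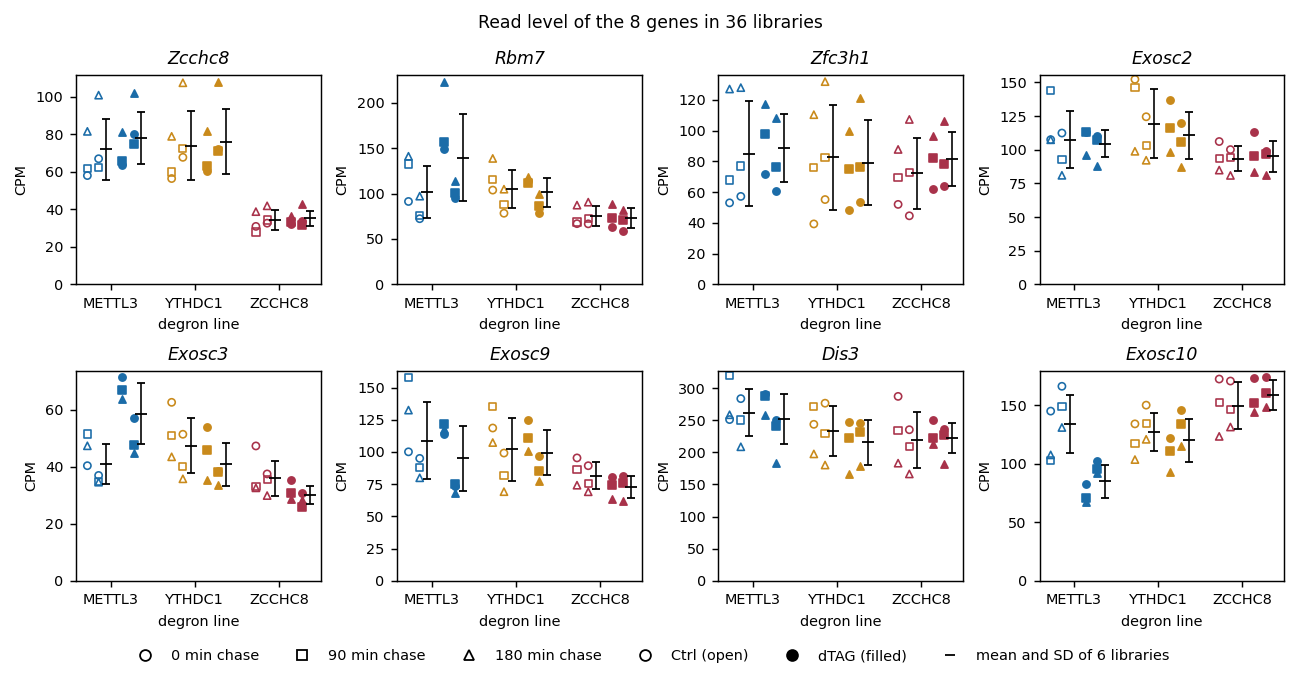
Level of each of the 8 genes in CPM (vertical axis, from 0) in the 36 libraries, by degron line, with open symbols for Ctrl and filled symbols for dTAG, symbol shape for chase time, and a bar for the mean and SD of 6 libraries. Zcchc8 stood at 27.9 to 42.8 CPM in the ZCCHC8 line and at 56.4 CPM or above elsewhere. Exosc10 of the METTL3 line was the 1 gene and line whose arms did not overlap, as for 7.12% of 9510 genes in that line.

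Depletion of METTL3 moved 2 of the genes in opposite directions, each by a larger fold than any of the 8 in the ZCCHC8 line. Exosc10 was at 102.7, 137.9 and 166.1 CPM in the Ctrl arm and at 67.4, 87.4 and 102.5 CPM in the dTAG arm. The arms did not overlap, as for 7.12% of the 9510 genes in this line. It was lower in 6 of 6 pairs, with log2 differences from −0.81 to −0.51 and a fitted fold change of −0.64 (SE 0.15, 95% interval −0.97 to −0.31, adjusted p = 0.0126 in edgeR). Exosc3 went the other way, from 34.6, 38.7 and 51.5 CPM in the Ctrl arm to 44.7, 60.4 and 71.4 CPM in the dTAG arm. It was higher in 6 of 6 pairs, by 0.37 to 0.82 on the log2 scale, with a fitted fold change of 0.53 (SE 0.148, 95% interval 0.20 to 0.85, adjusted p = 0.0283 in edgeR). These were 2 of 8 genes, beside 20.1% of the 14413 genes tested in this line (11.3% higher and 8.8% lower).

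Rbm7 in the METTL3 line was at 72.4, 94.3 and 141.2 CPM in the Ctrl arm and at 95.3, 131.6 and 223.1 CPM in the dTAG arm, and was higher in 6 of 6 pairs. Its fold change of 0.47 on the log2 scale (SE 0.208, adjusted p = 0.136 in edgeR) did not pass, and with the replicate number as a block it was 0.45 (adjusted p = 0.000211), which did. The other 5 genes had log2 fold changes between −0.18 (Exosc9) and 0.14 (Zcchc8), with adjusted p from 0.45 to 0.902 in edgeR. Summed over the chase, 2 against 2, 0 of 15894 genes were called in this line in edgeR and 1434 had an unadjusted p under 0.05, none of the 8 among them (adjusted p = 0.618 for Exosc10 and 0.693 for Exosc3).

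Split by label, the larger part of these differences at 0 min of chase was in RNA older than the pulse. Older Exosc10 RNA was lower in the dTAG arm by −1.27 and −0.95 on the log2 scale in the 2 replicates, and new Exosc10 RNA by −0.23 and −0.33. Older Exosc3 RNA was higher by 1.27 and 1.02, and new Exosc3 RNA by 0.44 and 0.16. Older Rbm7 RNA was higher by 1.33 and 1.52, and new Rbm7 RNA by 0.48 and 0.03. Over 7011 genes the median difference was −0.10 and −0.25 for new RNA and 0.01 and 0.20 for older RNA, and the median ratio went from 0.567 and 0.571 in the Ctrl arm to 0.504 and 0.462 in the dTAG arm. At 180 min the unlabelled part includes RNA made during the chase, so the 2 parts are not those of 0 min. Labelled Exosc3 RNA was then higher by 0.45 and 0.63, and unlabelled Exosc3 RNA by 0.41 and 0.13. For Exosc10 the differences at 180 min were −0.97 and −0.30 in labelled and −0.50 and −0.67 in unlabelled RNA. For Rbm7 they were 0.51 and 0.33 in labelled and 0.76 and 0.13 in unlabelled RNA. These are 2 values each and were not tested.

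Exosc10 and Exosc3 had opposite responses to the loss of METTL3, and m6A is placed within a short consensus of which GGACT is the commonest form. Those letters are therefore shown in the coding sequences of both genes, from GENCODE M21, with the motif in capitals and 8 bases on each side. Only the coding strand was searched, since the mark is on RNA, and the untranslated regions of the transcripts were not searched.
Exosc10, base 936: tttgccgtGGACTtagagcat
Exosc10, base 970: gcttcctaGGACTcacctgcc
Exosc10, base 1138: aagacttcGGACTctatgtgg
Exosc10, base 2369: tgacctgaGGACTatagagca
Exosc3, base 303: tactgggtGGACTcgcagcag

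Bases are counted from the first base of the start codon. GGACT occurred 4 times in the 2664 coding bases of Exosc10 (1.50 per kb), once in Exosc3 (1.21 per kb), 4 times in the longer Zfc3h1, not at all in Rbm7 and once in each of the other 4 genes. It was present in 72.4% of 21522 coding sequences, at a median of 1.04 per kb. A match is a description of letters and no measurement of the mark.

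**Figure D3:**
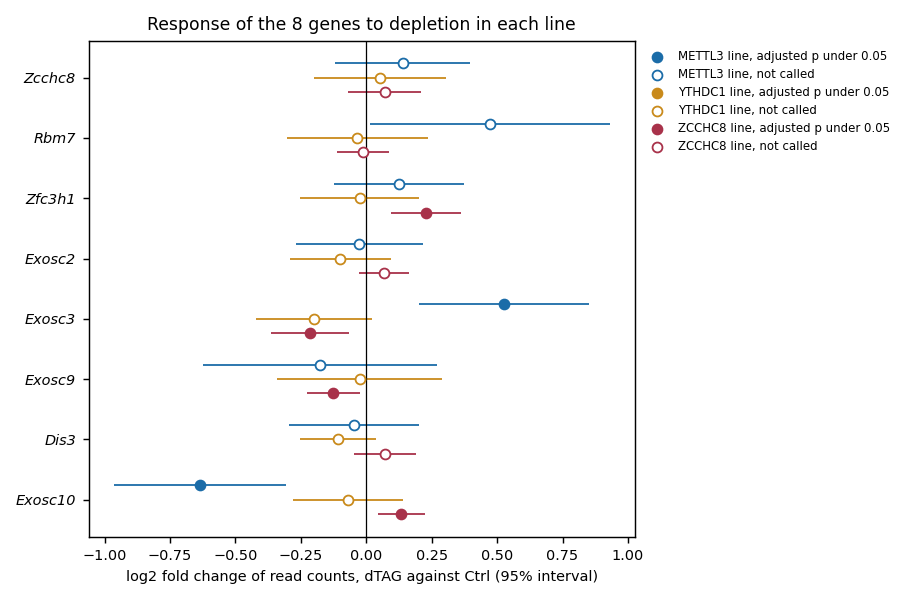
Log2 fold change of read counts, dTAG against Ctrl, for the 8 genes (rows) in the 3 lines (colours), with 95% intervals and filled points where the adjusted p was under 0.05. Exosc10 and Exosc3 moved by −0.64 and 0.53 in the METTL3 line, and no value in the ZCCHC8 line went beyond 0.23 in either direction.

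The responses to the loss of ZCCHC8 and of METTL3 differed for the same 2 genes when the difference itself was tested. The log2 fold change in the ZCCHC8 line minus that in the METTL3 line was 0.73 for Exosc10 (SE 0.148, adjusted p = 0.00048 in edgeR) and −0.77 for Exosc3 (SE 0.164, adjusted p = 0.000803). In this comparison 23.7% of 15101 genes were called. For Rbm7 it was −0.52 (SE 0.213, adjusted p = 0.0784 in edgeR), and −0.50 with the replicate block (adjusted p = 1.37e-05). For Zfc3h1, the gene with the largest rise in the ZCCHC8 line, the difference was 0.08 (95% interval −0.20 to 0.37, adjusted p = 0.734 in edgeR), so its rise was not shown to differ from that in the METTL3 line.

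Depletion of YTHDC1 moved none of the 8 genes past the threshold, beside 5.25% of 14199 genes. The count was also 0 of 8 at an unadjusted p under 0.05 in edgeR and in DESeq2, and the log2 fold changes ran from −0.20 to 0.05. The arms overlapped for each of the 8, and did not for 1.9% of the 9510 genes in this line. Exosc3 had the lowest of them. It was at 35.8, 47.2 and 62.6 CPM in the Ctrl arm and at 33.7, 38.4 and 53.8 CPM in the dTAG arm, lower in 6 of 6 pairs (−0.20, SE 0.102, adjusted p = 0.33 in edgeR), and passed with the replicate block (adjusted p = 0.0157), under which 27.3% of genes were called. Summed over the chase, 2 against 2, 0 of 15512 genes were called in this line in edgeR and 698 had an unadjusted p under 0.05, none of the 8 among them. Between the ZCCHC8 and YTHDC1 lines the difference of responses was called for 0 of 8 genes in edgeR, and for 0 at an unadjusted p under 0.05 and in DESeq2, beside 14.4% of genes, and the differences ran from −0.16 to 0.21. The difference for Zfc3h1 was 0.21 (95% interval −0.07 to 0.50), so an unequal response of that size is within the interval.

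The label told the adaptor genes from the 5 exosome genes. In the Ctrl arms the new-to-total ratio at 0 min was 0.637 to 0.858 in the 18 values of Zcchc8, Rbm7 and Zfc3h1, and 0.233 to 0.606 in the 30 values of Exosc2, Exosc3, Exosc9, Dis3 and Exosc10, with no overlap. Over 7011 genes the median was 0.546. Rbm7 had the highest mean of the 8, 0.818, at the 75.3 percentile of those genes, and Dis3 the lowest, 0.274, at the 20.1 percentile.

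The chase split the genes in the same way. The T-to-C rate is the number of T-to-C conversions over the T coverage of a gene. In the ZCCHC8 line Ctrl arm that of Zfc3h1 went from 7.21% and 7.36% at 0 min to 2.59% and 1.63% at 180 min, while that of Exosc10 went from 3.13% and 2.75% to 3.15% and 2.35%. Over the 6 Ctrl series of 3 lines a mean of 28.1% of the rate at 0 min was left at 180 min for Zfc3h1, 36.2% for Rbm7 and 40.3% for Zcchc8. The mean was 73.5% for Exosc3, 87.8% for Exosc2, 89.1% for Exosc10, 92.0% for Exosc9 and 110.0% for Dis3, where the median gene kept 69.0%. Zfc3h1 was at the 8.89 percentile and Dis3 at the 83.6 percentile of the 7011 genes. A T-to-C rate falls through decay of labelled RNA and through dilution by new unlabelled RNA, and does not separate them.

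**Figure D4:**
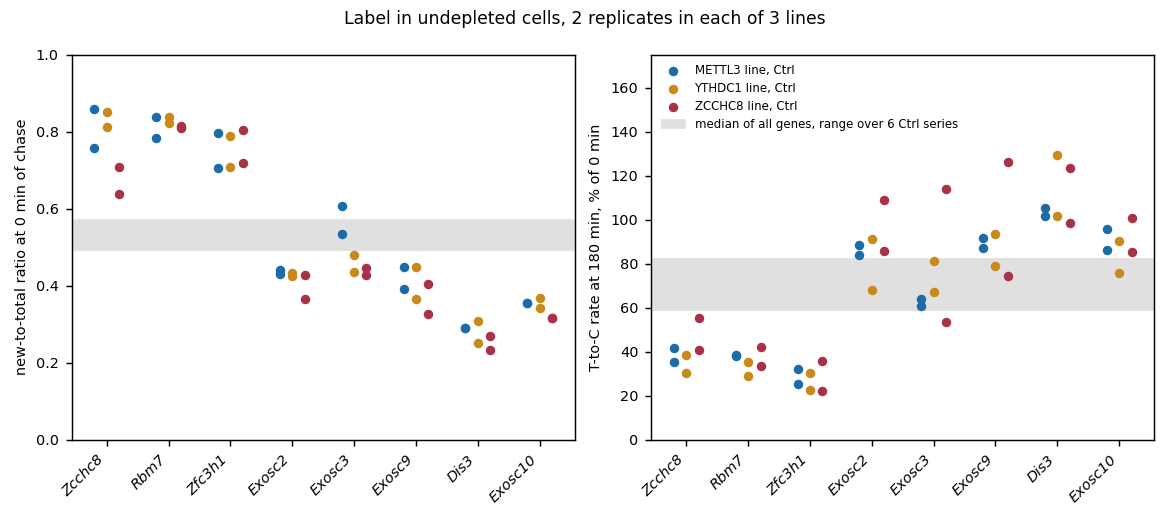
New-to-total ratio at 0 min of chase (left) and T-to-C rate at 180 min as a percentage of that at 0 min (right) for the 8 genes in Ctrl cells, with 2 replicates in each of 3 lines (colours) and a grey band for the range, over the 6 Ctrl series, of the median of all 7011 genes. The 3 adaptor genes lay above the band on the left (0.637 to 0.858) and below it on the right (22.2% to 55.5%).

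The split did not extend to the rest of the machinery. Among other exosome genes Exosc1 of the cap had a median ratio of 0.752 and Exosc6 of the ring one of 0.967, as high as the adaptors. On the low side were the helicase gene Mtrex at 0.257 and the PAXT gene Pabpn1 at 0.340.

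Read levels moved with the chase too. Zcchc8, Rbm7 and Zfc3h1 were higher at 180 than at 0 min in 12 of 12 series of line, arm and replicate, and the median rise of Zfc3h1 was 1.10 on the log2 scale, from 54.3 to 109.3 CPM. Exosc2 and Exosc10 were lower in 12 of 12 series, Exosc3 and Dis3 in 11 and Exosc9 in 10. Such runs were common, since 24.7% of 9510 genes were higher and 26.6% lower in all 12.

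Label was not called as changed in any of the 8 genes on loss of ZCCHC8. The log2 effect of the dTAG arm on the ratio ran from −0.11 (Zfc3h1) to 0.05 (Exosc3) in the ZCCHC8 line, with 0 of 8 genes past the threshold in limma beside 1.35% of 7251 genes, and 0 of 8 at an unadjusted p under 0.05. In the YTHDC1 line it was 0 of 8 on both counts, beside 0.635% of 8820 genes. The speed of label loss over the chase was not called for any of the 8 in any line in limma, where 0.386%, 0% and 0% of genes were called in the METTL3, YTHDC1 and ZCCHC8 lines. The 95% intervals of the 8 genes reached from −0.35 to 0.36 per hour on the log2 scale in the METTL3 line. They reached from −0.21 to 0.16 in the YTHDC1 line and from −0.28 to 0.26 in the ZCCHC8 line. Unequal slopes of those sizes were thus within the intervals. At an unadjusted p under 0.05 Exosc3 of the METTL3 line was the 1 gene, with a slope higher by 0.19 per hour on the log2 scale (adjusted p = 0.613 in limma). With the T-to-C rate in place of the ratio this count was 0 of 8 in the METTL3 line and 1 of 8 in the ZCCHC8 line. None was called in limma with that rate.

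In the METTL3 line 27.3% of 8289 genes were called for the ratio, mostly lower (24.5%), with a median of −0.15 over all genes. Zfc3h1 was 1 of the 8. Its ratio at 0 min was 0.707 and 0.797 in the Ctrl replicates and 0.689 and 0.706 in the dTAG replicates. At 90 min it was 0.531 and 0.680 against 0.418 and 0.532, and at 180 min 0.343 and 0.346 against 0.214 and 0.311. It was lower in 6 of 6 pairs, with a log2 effect of −0.29 (SE 0.106, adjusted p = 0.0461 in limma), and the T-to-C rate in place of the ratio gave −0.22 (adjusted p = 0.415), which did not pass. Zcchc8 had an effect of −0.24 (adjusted p = 0.0846, and 0.0247 with the replicate block). Exosc10 went against the run of genes, with 0.29 (adjusted p = 0.0514, and 0.037 with the block, in limma).

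Among the undepleted lines Rbm7 was the other subunit gene called besides Zcchc8. It was at 66.7, 70.7 and 90.6 CPM in the ZCCHC8 line, against 72.4, 94.3 and 141.2 CPM in the METTL3 line and 78.4, 104.4 and 138.8 CPM in the YTHDC1 line. The ranges overlapped, and the log2 differences were −0.39 (SE 0.123, adjusted p = 0.0268 in edgeR) and −0.43 (SE 0.122, adjusted p = 0.0318). Without replicate 1 the first of these was −0.08 (adjusted p = 0.302). With the replicate block 5 genes were called against the METTL3 line and 6 against the YTHDC1 line, Exosc10 among them as higher in the ZCCHC8 line (0.21 and 0.27, adjusted p = 0.00631 and 0.000904 in edgeR), beside 53.8% and 46.8% of all genes under that block. Between the METTL3 and YTHDC1 lines 0 of 8 were called in edgeR, with 0 at an unadjusted p under 0.05 and 0 in DESeq2, and without replicate 1 there were 4, beside 15% of all genes.

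Per kilobase of the length given in the tables, the order in Ctrl cells was led by Dis3 in each line, at 70.4 ± 9.94, 62.6 ± 10.4 and 58.9 ± 11.6 CPM per kb (SD, n = 6 libraries) in the METTL3, YTHDC1 and ZCCHC8 lines. Exosc2 or Exosc10 came next, and their SDs overlapped that of Dis3 except for Exosc10 in the METTL3 and YTHDC1 lines. Zfc3h1 was lowest in the METTL3 line (12.2 ± 4.89 CPM per kb) and the YTHDC1 line (11.9 ± 4.93), with SDs that overlapped those of Zcchc8 (16.5 ± 3.78 and 17.0 ± 4.23). In the ZCCHC8 line Zcchc8 was lowest, at 7.91 ± 1.19 CPM per kb, within the spread of Zfc3h1 (10.4 ± 3.31). Exosc10, Exosc2, Exosc9, Exosc3 and Rbm7 lay between, from 27.9 to 57.6 CPM per kb, with overlapping SDs between neighbours in that order except for Exosc2 (44.9 ± 4.50) above Exosc3 (33.4 ± 5.69) in the ZCCHC8 line. These SDs take in the 3 chase times.

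Of 34 other genes of nuclear and cytoplasmic RNA decay, 5 were higher and 5 lower in the ZCCHC8 line after depletion, with a median log2 fold change of 0.03, beside 20.1% higher and 19.5% lower over all genes. Mtrex, the helicase gene shared by NEXT and PAXT, was at 0.01 (95% interval −0.12 to 0.13, adjusted p = 0.946 in edgeR). The PAXT genes Pabpn1, for the nuclear poly(A) binding protein, and Zc3h3 were at −0.01 (95% interval −0.13 to 0.12) and 0.13 (−0.19 to 0.44). The 6 called genes with the largest changes were Skic8, of the cytoplasmic SKI complex (−0.34, adjusted p = 4.05e-05 in edgeR), Srrt, which codes for the cap-binding adaptor ARS2 (0.33, adjusted p = 1.84e-06), Dis3l, the cytoplasmic counterpart of Dis3 (−0.27, adjusted p = 0.0011), Tent4a, a poly(A) polymerase of the TRAMP type (−0.25, adjusted p = 0.00241), C1d, a cofactor of EXOSC10 (0.21, adjusted p = 0.00195), and Wdr82, of the Restrictor complex (0.20, adjusted p = 0.000776). In the METTL3 line 3 of the 34 were higher and 1 lower, beside 11.3% and 8.8% of all genes, with Dis3l the highest at 0.91 (SE 0.132, adjusted p = 0.00104 in edgeR). The Dis3l difference between the ZCCHC8 and METTL3 lines was −1.22 (SE 0.14, adjusted p = 1.94e-07 in edgeR). In the YTHDC1 line 0 of the 34 were called in edgeR, beside 5.25% of all genes, and 2 had an unadjusted p under 0.05.

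**Figure D5:**
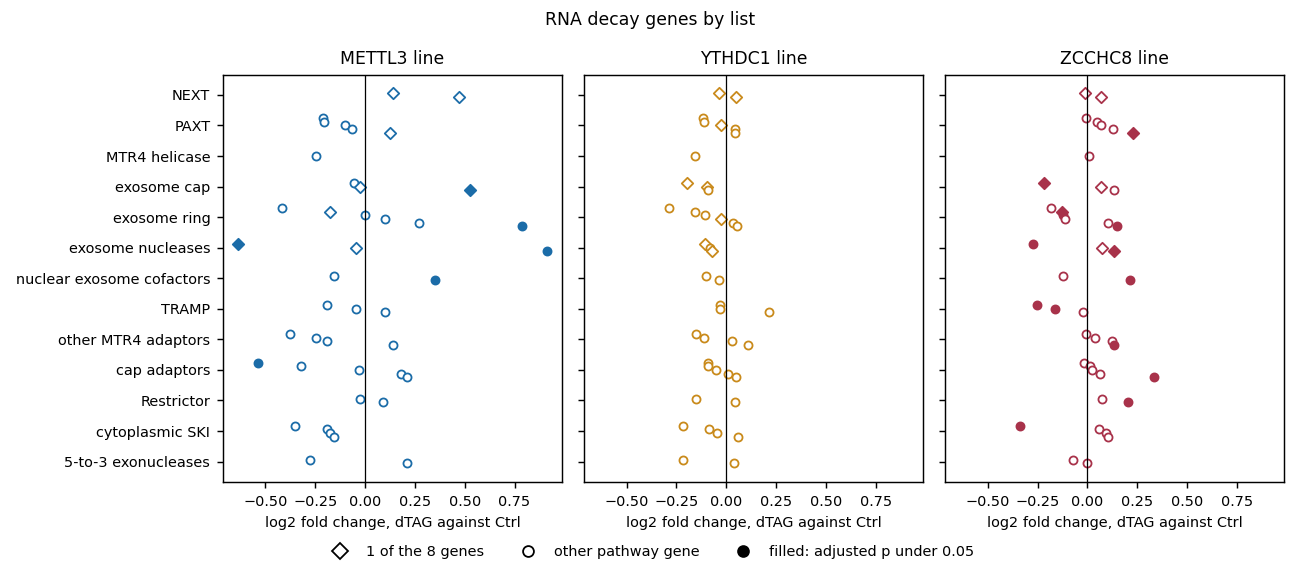
Log2 fold change of read counts, dTAG against Ctrl, of the 8 subunit genes (diamonds) and 34 other RNA decay genes (circles) by list in each of the 3 lines, filled where the adjusted p was under 0.05. In the ZCCHC8 line no list had all its members called, and the values stayed between −0.34 and 0.33.

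Exons of 4 of the 8 genes overlap a gene on the opposite strand: Exosc2 (Gm13427), Exosc3 (Dcaf10), Exosc9 (Ccna2) and Dis3 (Pibf1). The study's methods name a stranded library kit, but the use of strand in counting was not stated. Whether reads of a gene and its partner were counted apart there is therefore not known. Exosc10, Rbm7, Zfc3h1 and Zcchc8 have no such overlap in GENCODE M21.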

How the data were processed

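SLAM-seq reads were aligned by the authors to mm10 with STAR 2.5.2b (per the submitters' processing notes) and passed to GRAND-SLAM for each line and replicate, giving 6 tables of 20070 to 20640 genes. The deposited read counts are whole numbers per gene, without normalization. The authors' ratio of new to total RNA is a fraction, deposited as the maximum (MAP) of its posterior. The posterior mean, also a fraction, was an alternative. The deposited conversion and coverage sums gave the T-to-C rate. The use of strand in counting is not given in the sources used here. Of the columns with per-sample values 252 were read, while 180 were left aside. Groups came from the labels, and the replicate from the name of the table that holds the library.

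Counts were tested with edgeR 4.0.16 (quasi-likelihood, TMM, filterByExpr, chase time as a factor, 12 libraries of a line, 18 Ctrl libraries between lines, and all 36 for a difference of responses). DESeq2 1.42.0 was an alternative. The log2 ratio was tested with limma 3.58.1 where each library of the line had 100 reads or more and a ratio not below 0.02. p-values were two-sided and adjusted over all genes by Benjamini-Hochberg, with a threshold of 0.05. The tests were tested on simulated data. None of the changed genes was recovered for label loss in the METTL3 line. A minority was recovered for label loss in the other lines and for read counts in the METTL3 line. Genes not called in these tests may therefore still have changed. The replicate numbers paired the samples: deviations of Ctrl and dTAG libraries with the same number and time correlated at 0.315 to 0.873 over 9319 genes. The labels do not say whether replicates, or the 3 chase times of a replicate, came from separate cultures, so p-values measure the spread between these libraries, which may be technical. Replicates differed by more than sampling noise (chi-square per degree of freedom 2.45 to 77.9). New RNA is CPM multiplied by the ratio.

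All 8 genes are named whatever their values. Of the 34 other decay genes, Mtrex, Pabpn1, Zc3h3 and Dis3l are named whatever their values, with the up to 6 called genes of largest change in the ZCCHC8 line. Exosc1 and Exosc6 in the comparison of label, and Clip1, Mlxip and Hip1r near Zcchc8, were named after their values were seen. For Zcchc8, Rbm7 and Dis3 the 5 genes most alike by Pearson r over 18 group means are named. The members and lists were chosen with earlier results of these data known.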

Additional observations from a re-analysis of the deposited data

Results flagged for a closer look

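The responses of 2 genes differed between lines when the difference itself was tested in edgeR. For Exosc3 the log2 fold change on depletion in the ZCCHC8 line minus that in the METTL3 line was −0.77 (adjusted p = 0.000803), with 6 of 6 pairs lower in the ZCCHC8 line and 6 of 6 higher in the METTL3 line. For Exosc10 the same difference was 0.73 (adjusted p = 0.00048), with 5 of 6 pairs higher in the ZCCHC8 line and 6 of 6 lower in the METTL3 line. Exosc3 shares exon sequence with Dcaf10 on the opposite strand, and Exosc10 has no such partner. Among 48 groups of 6 libraries (8 genes, 3 lines, 2 arms) no library stood apart from the others in CPM by Dixon's criterion. Each group pools the 3 chase times, and levels moved with the chase, so a library apart at a single time could be missed.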

How the results depend on the processing

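Exosc10 and Exosc3 kept their direction in the METTL3 line, and Zfc3h1 in the ZCCHC8 line, under each alternative of TMM or RLE scaling, DESeq2, no filter, replicate block, a replicate left out and libraries summed over the chase. Summed over the chase, the genes called among the 8 went from 2 to 0 in the METTL3 line and from 4 to 0 in the ZCCHC8 line. The shares of all genes called were then 0% and 24.8%. The replicate block, which follows the pairing, gave 1 in place of 0 in the YTHDC1 line, 3 in place of 1 for the ratio in the METTL3 line, and 5 and 6 in place of 2 for the Ctrl levels of the ZCCHC8 line against the METTL3 and YTHDC1 lines, beside 27.3%, 36.7%, 53.8% and 46.8% of all genes under the block. It added Rbm7 in the METTL3 line and in the difference between the ZCCHC8 and METTL3 lines, and changed no other call of the 8 genes. For the ratio in the METTL3 line the posterior mean gave 2, and the T-to-C rate and the lower filter (20 reads) each 0. These settings called 27.5%, 5.31% and 21.1% of all genes. For the Ctrl levels of the ZCCHC8 against the YTHDC1 line DESeq2 gave 5 and no filter 4, beside 19.3% and 10.9% of all genes.

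With 1 replicate left out the counts ranged from 4 to 6 (METTL3), 0 to 1 (YTHDC1) and 1 to 4 (ZCCHC8) for the arms (beside 40.1 to 52.3%, 9.58 to 25% and 24.5 to 37% of all genes). They were 3 to 5 and 0 to 2 for the differences of the ZCCHC8 from the METTL3 and YTHDC1 responses (beside 27.8 to 42.3% and 11.9 to 29.2%). For the METTL3 ratio they were 0 to 0 (beside 6.41 to 7.51%). For the Ctrl levels of ZCCHC8 against METTL3, ZCCHC8 against YTHDC1 and METTL3 against YTHDC1 they were 4 to 4, 6 to 7 and 0 to 4. The shares of all genes there were 37.5 to 46.5%, 30.3 to 39.6% and 1.08 to 15%. Effects not called with both replicates that turned sign ranged, on the log2 scale, from −0.063 to 0.33 (Zfc3h1), from −0.14 to 0.066 (Dis3) and from −0.10 to 0.092 (Exosc2) in the METTL3 line, from −0.097 to 0.059 (Exosc9) and from −0.10 to 0.034 (Zfc3h1) in the YTHDC1 line, and from −0.067 to 0.041 (Rbm7) in the ZCCHC8 line. In the METTL3 line Zfc3h1 at 0.33 (adjusted p = 0.043) and Dis3 at −0.14 (adjusted p = 0.0445) passed in edgeR. The causes were not tested.

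Counts over all genes moved too. With the replicate block 6994 in place of 2898 genes were called in the METTL3 line and 3875 in place of 746 in the YTHDC1 line (1156 with DESeq2), and summed over the chase 0 in both. The ZCCHC8 line went from 5533 to 3409 without replicate 2. For the ratio in the METTL3 line the T-to-C rate called 440 in place of 2265. The ZCCHC8 line was the shallowest, with 164 to 345 Zcchc8 and 163 to 290 Exosc3 reads per library.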

Other observations

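Levels most like those of 3 of the genes were found by Pearson r of log2 CPM over the 18 group means, among 9510 genes, as a description of means that share libraries and depth. For Zcchc8 they were Med6 (0.968), Sec22a (0.956), Nup35 (0.955), Tmem128 (0.951) and Orc6 (0.951). For Rbm7 they were Amd1 (0.981), Atl2 (0.976), Arl14ep (0.976), Cnot8 (0.974) and Prpf4 (0.974), and for Dis3 Stk31 (0.979), Eif2s1 (0.95), Atrx (0.947), Cbx1 (0.939) and Ptcd3 (0.937). None of these is an exosome, NEXT or PAXT subunit of the lists used.

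Zc3h3, the zinc finger gene of PAXT, was higher in undepleted cells of the ZCCHC8 line than of the METTL3 line (0.82 on the log2 scale, SE 0.256, adjusted p = 0.0246 in edgeR) and of the YTHDC1 line (1.00, SE 0.256, adjusted p = 0.0223), while the PAXT subunit Zfc3h1 was at −0.17 and −0.12 in the same comparisons. Zc3h3 had as few as 11 reads in a library and did not enter the tests of label.

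Clip1, the neighbour of Zcchc8 that was low in the ZCCHC8 line, stayed low after depletion there (5.79, 7.89 and 11.1 CPM) and was at 33.0, 42.5 and 53.3 CPM in the dTAG arm of the METTL3 line, above its Ctrl arm.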
